A study of Mus musculus with 12 samples.

Results

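Astrocytes are the glial cells that clear glutamate from synapses, buffer potassium and water, and contact blood vessels with their end-feet. The 10 genes described here are used as markers of astrocyte identity. They are Gfap (the intermediate filament glial fibrillary acidic protein), Aqp4 (the end-foot water channel aquaporin-4), Aldh1l1 (a folate-metabolizing dehydrogenase), Slc1a2 and Slc1a3 (the glutamate transporters GLT-1 and GLAST), Gja1 (the gap-junction protein connexin 43), Sox9 (a transcription factor of the glial lineage), S100b (a calcium-binding protein), Aldoc (the glycolytic enzyme aldolase C) and Id3 (an inhibitor of basic helix-loop-helix factors). Not all are private to astrocytes: S100b is also known in oligodendrocytes, and Id3 in vascular and immune cells. Open chromatin at these genes in a sort for another cell type can come from astrocyte nuclei or from the sorted cells, and in bulk libraries fewer cells of a type and less accessibility per cell cannot be told apart.

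Member peaks were all peaks that the deposited tables assign to 1 of the 10 genes, which gave 175 of 281974 peaks: 45 of 91770 in microglia, 59 of 107627 in NeuN+ nuclei and 71 of 82577 in Olig2+ nuclei. Peaks within 1000 bp of the annotated transcription start site were taken as start-site peaks and the others as distal. WT C57BL/6 mice were compared with SgshKO mice at 4 months of age by ATAC-seq of forebrain, with 2 libraries for each genotype and sort and 12 in all. Sgsh encodes sulfamidase, a lysosomal enzyme of heparan sulfate breakdown, and the labels do not describe the allele further. Microglia were sorted as live cells with CD11b and CX3CR1 and low CD45. Nuclei were lightly fixed with formaldehyde and sorted as NeuN+ without PU.1 and OLIG2, or as OLIG2+ without PU.1 and NeuN. No gene of the list was used in these gates. The labels do not say whether libraries of a group came from separate animals, so p-values measure the spread between these libraries, which may be technical.

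Libraries held 10771659 to 11804222 tags in microglia, 14326703 to 17706971 in NeuN+ nuclei and 15044194 to 19555924 in Olig2+ nuclei, and values are tags per peak scaled to 10000000 tags a library. A start-site peak was present for 9 of 10 microglial genes in microglia, 10 of 10 neuronal genes in NeuN+ nuclei, and 10 of 10 oligodendrocyte and 8 of 8 oligodendrocyte-precursor genes in Olig2+ nuclei. These lists include genes of the sorting markers themselves: Cx3cr1, Rbfox3 (which encodes NeuN) and Olig2. Genes of other lineages also had such peaks. In microglia these were 6 of 10 oligodendrocyte, 3 of 8 oligodendrocyte-precursor and 2 of 10 neuronal genes. In NeuN+ nuclei they were 5 of 10 oligodendrocyte, 4 of 8 oligodendrocyte-precursor and 1 of 10 microglial genes. In Olig2+ nuclei they were 5 of 10 neuronal and 2 of 10 microglial genes. Of all protein-coding genes, 54.1% had one in microglia, 54.7% in NeuN+ and 49.4% in Olig2+ nuclei. Endothelial genes had one for 4, 2 and 2 of 10, pericyte and smooth muscle genes for 4, 3 and 0 of 8, ependymal genes for 2 of 5 in each sort, and blood and border myeloid genes for 4, 0 and 0 of 9. The share of tags in peaks was 25.9% to 26.7% in WT and 21.2% to 21.5% in SgshKO libraries of NeuN+ nuclei, 30.9% to 31.8% in Olig2+ nuclei and 48.7% to 67.4% in microglia.

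The sequence just upstream of the start site is shown for 5 members. The windows of Id3, Aldoc, S100b and Slc1a3 are touched by start-site peaks of these genes, and that of Gfap was touched by no peak in any sort. Promoter windows from RefSeq (GRCm38.p6) were used for 8 of 10 members. None was used for Aqp4 or Sox9, and whether RefSeq holds one for them was not tested. Each line holds the 250 bases before the start site, 5′ to 3′ on the strand of the gene. Capitals mark matches on either strand to the STAT motif TTCNNNGAA, the nuclear factor I motif TTGGCA, the AP-1 motif TGANTCA, the E-box CACGTG or the GC-rich SMAD motif GGCGCC.
Id3 (chr4:136143572-136143821, plus strand): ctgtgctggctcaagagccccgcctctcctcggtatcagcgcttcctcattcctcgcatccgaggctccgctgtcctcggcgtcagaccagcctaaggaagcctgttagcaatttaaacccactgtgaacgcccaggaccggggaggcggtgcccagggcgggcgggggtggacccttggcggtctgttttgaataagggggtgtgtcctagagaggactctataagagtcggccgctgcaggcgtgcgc
Aldoc (chr11:78322823-78323072, plus strand): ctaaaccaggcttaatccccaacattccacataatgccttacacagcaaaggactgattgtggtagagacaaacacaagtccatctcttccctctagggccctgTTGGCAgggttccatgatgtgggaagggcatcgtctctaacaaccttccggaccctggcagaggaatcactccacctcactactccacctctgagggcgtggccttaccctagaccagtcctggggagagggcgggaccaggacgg
S100b (chr10:76253586-76253835, plus strand): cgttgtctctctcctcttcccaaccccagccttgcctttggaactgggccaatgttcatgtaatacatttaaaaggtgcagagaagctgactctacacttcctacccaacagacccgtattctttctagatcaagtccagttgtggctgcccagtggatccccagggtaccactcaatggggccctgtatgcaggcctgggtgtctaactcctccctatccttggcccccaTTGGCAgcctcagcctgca
Slc1a3 (chr15:8710808-8711057, minus strand): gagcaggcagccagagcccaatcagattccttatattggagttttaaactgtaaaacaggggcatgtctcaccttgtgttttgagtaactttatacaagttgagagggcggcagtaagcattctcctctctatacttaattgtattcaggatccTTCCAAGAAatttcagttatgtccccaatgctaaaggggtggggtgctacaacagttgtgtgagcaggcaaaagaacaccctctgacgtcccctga
Gfap (chr11:102897201-102897450, minus strand): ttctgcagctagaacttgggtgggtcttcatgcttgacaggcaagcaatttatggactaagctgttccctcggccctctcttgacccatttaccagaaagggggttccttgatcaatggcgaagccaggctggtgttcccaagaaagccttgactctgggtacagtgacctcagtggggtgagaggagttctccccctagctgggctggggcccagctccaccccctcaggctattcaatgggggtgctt

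The Id3 peak covered 198, 199 and 198 of these bases in microglia, NeuN+ and Olig2+ nuclei. The Aldoc window was covered for 134, 129 and 158 bases, and its nuclear factor I match, 146 bases before the start site, lies in the Olig2+ peak and upstream of the other two. For S100b, the NeuN+ peak took 103 bases of the far end and the Olig2+ peak the 148 bases nearest the start site, which hold the nuclear factor I match 19 bases before it. The microglial Slc1a3 peak covered 101 bases with the STAT match 96 bases before the start site. Of the windows not shown, that of Gja1 held 1 AP-1 match and that of a further Aldoc start site 2 STAT matches. Those of Slc1a2 and Aldh1l1 held none. Such matches are common: of 32851 promoter windows of the same length, 7.02% held the STAT motif, 12.3% the nuclear factor I motif, 6.75% the AP-1 motif, 6.02% the E-box and 9.59% the SMAD motif. Id3 was rich in CpG, with 62.8% G and C and 18 CpG, beside medians of 52.4% and 6 over all windows. Slc1a3 had 44.8% and 2 CpG, S100b 53.6% and 2, Gfap 55.6% and 2, and Aldoc 55.2% and 5.

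Start-site peaks of the astrocyte genes were about as frequent as those of other genes, and those present were mostly low. Gfap, Aqp4 and Gja1 had no start-site peak in any sort, and Sox9 had peaks in NeuN+ nuclei only, 4 at the start site and 1 distal. A start-site peak was present for 5 of 10 members in microglia, 5 of 10 in NeuN+ nuclei and 4 of 10 in Olig2+ nuclei, beside 54.1%, 54.7% and 49.4% of 21896 protein-coding genes. The median percentile of the start-site peaks present among all start-site peaks was 23.7 for microglia, 33.8 for NeuN+ and 20.5 for Olig2+ nuclei, and 1 of 9, 2 of 12 and 2 of 7 lay above the median of that class.

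**Figure D1:**
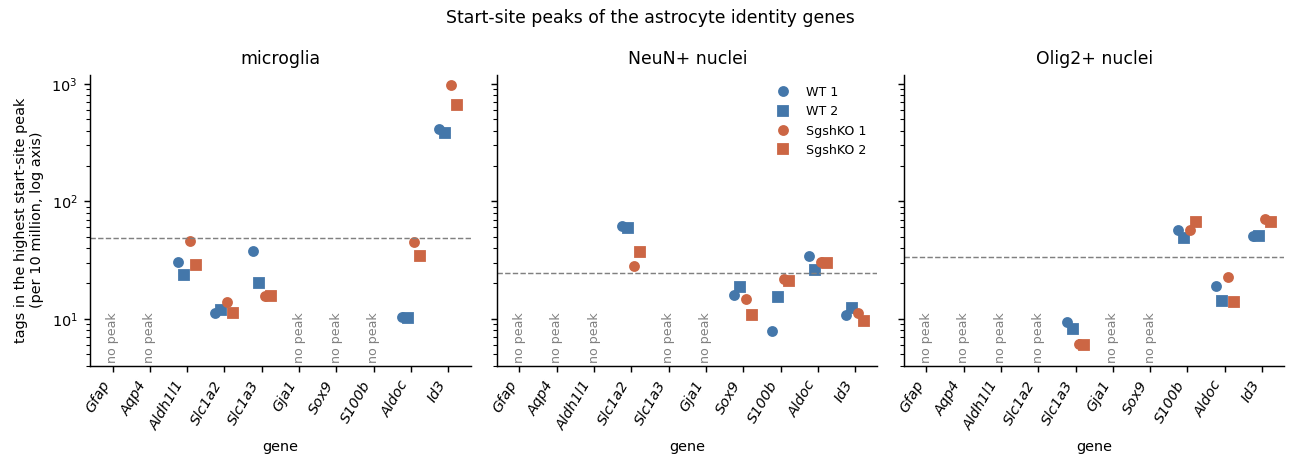
Tags per 10000000 (log axis) in the highest start-site peak of each gene (x axis) by sort. Each point is 1 library, blue for WT and orange for SgshKO, circles for replicate 1 and squares for replicate 2, and the dashed line is the median of all start-site peaks; Id3 in microglia, at 382.07 to 985.22 tags, is the highest, and "no peak" marks genes without one.

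In microglia, the start sites of Id3 and Aldoc were more open in SgshKO, and peaks of Slc1a3 were lower. The Id3 start-site peak (chr4:136143524-136143769, centred 176 bp upstream) held 410.5 and 382.07 tags in WT and 985.22 and 660.07 in SgshKO libraries. Both SgshKO libraries lay above both WT libraries, a log2 change of 1.02 ± 0.25 (SE, n = 2 and 2; limma, adjusted p = 0.00751). Per length, at 1617 tags per kb in WT, it was the most open start-site peak of the 10 genes in the 3 sorts, and the next gene in microglia was Slc1a3 at 133.2 tags per kb. The call of the Id3 start-site peak was lost with quantile normalization (limma, adjusted p = 0.0949).

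Aldoc had a single peak in microglia, at its start site (chr11:78322939-78323189), with 10.37 and 10.17 tags in WT and 45.02 and 34.35 in SgshKO. These are 12 and 12 reads against 52 and 37, and the genotypes did not overlap (log2 change 1.84 ± 0.43, limma, adjusted p = 0.00563). A weak Id3 peak in intron 1 of 2, 392 bp downstream, went the other way, with 13.83 and 11.01 tags in WT and 1.73 and 4.64 in SgshKO (-1.77 ± 0.54, adjusted p = 0.0369). These are 16 and 13 reads against 2 and 5. That call was lost with a pseudocount of 0.5 (limma, adjusted p = 0.0503) and with quantile normalization (limma, adjusted p = 0.0913).

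The other members with a start-site peak in microglia were not called, that is, their adjusted p was not under 0.05. Aldh1l1 held 30.25 and 23.72 tags in WT and 45.88 and 28.78 in SgshKO (0.43 ± 0.40, adjusted p = 0.573), and Slc1a2 held 11.23 and 11.86 against 13.85 and 11.14. For both, the genotypes overlapped. The highest of 3 start-site peaks of Slc1a3, 336 bp downstream in its 5′ UTR, held 38.03 and 20.33 against 15.58 and 15.78 (-0.79 ± 0.44, adjusted p = 0.292), with both SgshKO libraries the lower. The Slc1a3 peak that reaches into the printed window, named for that reason, held 25.93 and 16.1 against 8.66 and 13.93 tags (-0.84 ± 0.47, adjusted p = 0.298).

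Some distal Id3 peaks were called higher along with the Id3 start site, while others were not called. Of the 7 distal Id3 peaks, 6 had a log2 change above 0 and 1 below. The peak 26612 bp upstream (chr4:136117052-136117368) went from 29.38 and 23.72 tags in WT to 93.5 and 67.77 in SgshKO (1.56 ± 0.36, adjusted p = 0.00489), and the peak 4031 bp downstream (chr4:136147730-136147976) from 115.8 and 140.63 to 225.09 and 287.79 (0.99 ± 0.28, adjusted p = 0.0231). The call of the downstream peak was lost with quantile normalization (limma, adjusted p = 0.0711). A further distal peak of low signal was also called higher. In all, 5 of the 10 Id3 peaks were called, 4 higher and 1 lower. The genotypes did not overlap at any of the 5, nor at 51.1% of all microglial peaks.

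Slc1a3, whose transporter takes up glutamate, had 19 peaks in microglia, the most of any member there, from 91091 bp upstream to 85211 bp downstream of its start site. All 19 log2 changes were below 0, with a median of -0.79 beside -0.08 over all microglial peaks, and 3 were called lower. The peak in intron 3 of 9, 42839 bp downstream (chr15:8667853-8668083), held 104.57 and 64.38 tags in WT and 25.11 and 25.99 in SgshKO (-1.65 ± 0.36, adjusted p = 0.00317). The intergenic peak 81412 bp downstream (chr15:8629291-8629500) held 139.14 and 78.79 against 44.15 and 36.21 (-1.37 ± 0.34, adjusted p = 0.00974). The genotypes were separate at both.

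WT replicate 1 was the higher WT library at all 19 Slc1a3 peaks. The gap was widest at the peak 91091 bp upstream, named here after its values were seen, with 173.71 and 33.04 tags in WT and 41.56 and 20.42 in SgshKO. Without WT replicate 1, 15 of the 19 changes were below 0 and 0 were called. Without SgshKO replicate 2, 16 were below 0, and the other scalings gave 17 to 19. The distal Slc1a3 peaks summed to 1634.23 and 1011.51 tags in WT microglia and to 921.13 and 702.78 in SgshKO microglia.

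The remaining members gave no call in microglia. Gfap, whose rise is the usual sign of a reactive astrocyte, had 2 peaks, and the one 3818 bp upstream held 34.57 and 32.19 tags in WT and 35.5 and 31.56 in SgshKO, which overlap. The other, in exon 6 of 9 and named after its values were seen, held 39.75 and 40.66 against 59.74 and 43.63, with both SgshKO libraries the higher but no call (0.34 ± 0.36, adjusted p = 0.63). The changes of both S100b peaks, in its intron 2 of 2, were above 0 with a median of 0.54, and those of all 3 Aqp4 peaks and of the single Gja1 peak were below 0. Sox9 had no peak.

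Of the 45 microglial member peaks, 9 were called, 5 higher and 4 lower, where 7.37% of all microglial peaks were called, 5.05% higher and 2.33% lower. These were 3 of 9 start-site peaks, beside 9.8% of all start-site peaks, and 6 of 36 distal peaks, beside 6.52%. The median log2 change was -0.34 over the member peaks and -0.08 over all peaks. Scaled to tags in peaks, 16 were called, 5 higher and 11 lower, and with median-of-ratios scaling 12, 5 higher and 7 lower. Quantile normalization gave 10, 4 higher and 6 lower, of which 5 were among the 9. Of the 9 calls, 0 remained without WT replicate 1 (0 member peaks called by limma, 5 at an unadjusted p under 0.05) and 0 without WT replicate 2 (1 other peak called, 13 unadjusted), when calls over all microglial peaks went from 6765 to 1159 and 557. The adjusted p was then 0.158 and 0.379 for the Id3 start site, 0.136 and 0.232 for Aldoc, and 0.433 and 0.0838 for the Slc1a3 peak in intron 3.

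In NeuN+ nuclei member peaks moved in both directions, and the called peaks of Id3, Sox9 and Gja1 were lower in SgshKO. The strongest member start site there was that of Slc1a2, in a peak in its 5′ UTR 151 bp downstream (chr2:102658727-102658953), with 61.74 and 59.3 tags in WT and 27.92 and 36.82 in SgshKO (-0.90 ± 0.18, limma, adjusted p = 0.00153). The genotypes did not overlap, nor did they at 77.8% of all NeuN+ start-site peaks, whose median log2 change was -0.53. The call was lost with quantile normalization (limma, adjusted p = 0.0643) and with DESeq2 (adjusted p = 0.187). Per length the Slc1a2 peak held 267.8 tags per kb in WT, ahead of Aldoc at 138.2.

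Sox9 had 4 start-site peaks in NeuN+ nuclei, all low. The peak 259 bp downstream held 11.33 and 12.99 tags in WT and 7.68 and 4.44 in SgshKO (-0.93 ± 0.34, adjusted p = 0.0428), and the peak 663 bp downstream held 16.99 and 12.99 against 9.77 and 5.08 (-0.97 ± 0.33, adjusted p = 0.0341). The highest of the 4, 102 bp upstream, was not called, at 15.86 and 18.64 against 14.66 and 10.79 (adjusted p = 0.242). Both calls were lost when libraries were scaled to tags in peaks (adjusted p = 0.147 and 0.115).

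S100b rose at its start site, 265 bp upstream, from 7.93 and 15.25 tags in WT to 21.64 and 20.95 in SgshKO (0.89 ± 0.29, adjusted p = 0.0296). The call was lost with quantile normalization (limma, adjusted p = 0.0595) and with DESeq2 (adjusted p = 0.213). Of its 7 distal peaks, 3 were called lower. Of these 3, 1 lies in an intron of S100b and the others at the end of the neighbour Dip2a, and scaled to tags in peaks 1 distal peak was called lower. Aldoc did not separate the genotypes, at 34.55 and 25.98 tags in WT and 30.71 and 29.84 in SgshKO (0.01 ± 0.21, adjusted p = 0.965). Id3 was low at its start site, at 10.76 and 12.42 against 11.17 and 9.52 tags. In all, 4 of 12 member start-site peaks were called, 1 higher and 3 lower, where 46.6% of all start-site peaks were called and their median log2 change was -0.53.

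The distal member peak with the smallest p was that of Aldh1l1 12651 bp upstream (chr6:90538037-90538247), which held 49.85 and 51.39 tags in WT and 20.24 and 19.05 in SgshKO (-1.32 ± 0.19, adjusted p = 0.000102). A peak in its intron 4 of 22, 9791 bp downstream, rose from 25.49 and 24.85 to 43.97 and 43.81 tags (0.78 ± 0.19, adjusted p = 0.00564). These peaks of the same gene moved in opposite directions, each with replicates close together. At Gja1 the called peak, 38010 bp upstream (chr10:56339188-56339393), held 24.36 and 20.9 tags in WT and 6.98 and 9.52 in SgshKO (-1.36 ± 0.28, adjusted p = 0.00163).

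The Id3 peaks on either side of the gene fell in NeuN+ nuclei. The one 3353 bp upstream went from 40.78 and 35.01 tags to 16.75 and 16.51 (-1.14 ± 0.22, adjusted p = 0.000923), and the one 4034 bp downstream from 57.21 and 45.18 to 29.32 and 25.4 (-0.87 ± 0.19, adjusted p = 0.00282). Slc1a3 fell at the peak 81422 bp downstream, from 26.62 and 29.37 to 20.24 and 10.79 tags (-0.87 ± 0.27, adjusted p = 0.0218), a call lost when scaled to tags in peaks (adjusted p = 0.101). Another Slc1a3 peak, 30078 bp upstream and named after its values were seen, was called higher, at 4.53 and 10.17 against 13.26 and 15.24 tags (0.95 ± 0.34, adjusted p = 0.0439). Over the 9 Slc1a3 peaks, 1 was called higher and 2 lower, and 1 higher and 0 lower when scaled to tags in peaks. Among the peaks called higher were 3 of Slc1a2, all within introns of its neighbour Pamr1, and 2 of Aqp4, both within introns of its neighbour Chst9.

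Of the 59 member peaks in NeuN+ nuclei, 20 were called, 8 higher and 12 lower, where 29.8% of all peaks were called, 10.2% higher and 19.6% lower. Among distal peaks it was 16 of 47, beside 25.2% of all distal peaks. The median log2 change was -0.18 over the member peaks and -0.23 over all peaks. The split turned with the scaling. Scaled to tags in peaks, 17 were called, 11 higher and 6 lower, and with median-of-ratios scaling 16, 10 higher and 6 lower, while the median over all peaks went from -0.23 to 0.05 and -0.03. The share of tags in peaks was lower in both SgshKO libraries, and its part in these calls was not tested. Without SgshKO replicate 1 or without SgshKO replicate 2, 0 of all NeuN+ peaks were called by limma, and 18 and 16 member peaks had an unadjusted p under 0.05.

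In Olig2+ nuclei 6 of 16 Id3 peaks rose, S100b rose at 2 upstream peaks and Aldh1l1 at 1 of 5, and neither member start-site peak above the class median was called. Of the 16 Id3 peaks, 15 had a log2 change above 0 and 6 were called, none lower, with a median of 0.57 beside -0.07 over all Olig2+ peaks. The peak 8461 bp upstream (chr4:136135227-136135496) went from 29.56 and 31.7 tags in WT to 66.4 and 67.8 in SgshKO (1.11 ± 0.17, limma, adjusted p = 3.75e-05). The peak 4088 bp downstream (chr4:136147784-136148036) went from 84.03 and 96.65 to 122.35 and 127.62 (0.47 ± 0.12, adjusted p = 0.00819), and the one 4995 bp downstream from 19.19 and 14.32 to 33.82 and 31.91 (0.94 ± 0.23, adjusted p = 0.00504). The genotypes did not overlap at any of these, nor at 61.2% of all Olig2+ peaks.

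At the Id3 start site there were 50.83 and 50.62 tags in WT and 70.09 and 67.14 in SgshKO, with both SgshKO libraries higher, and the test narrowly missed the threshold (0.43 ± 0.16, adjusted p = 0.0503). A weak peak in intron 1 of 2, 363 bp downstream, was called, at 4.15 and 8.18 against 12.91 and 15.29 tags (1.13 ± 0.34, adjusted p = 0.0188). The microglial peak called lower lies within it. With 1 library left out, 14 to 16 of the 16 changes were above 0, and 2 peaks were called without WT replicate 1, 4 without WT replicate 2 and 4 without SgshKO replicate 2.

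S100b had the most member peaks in Olig2+ nuclei, 21, with a median log2 change of -0.01. Its peak 5078 bp upstream (chr10:76248629-76248888) rose from 106.33 and 107.38 to 168.47 and 142.91 tags (0.53 ± 0.11, adjusted p = 0.00143). A weaker upstream peak was called higher, and 2 peaks in introns of the neighbour Dip2a were called lower. The S100b start site held 56.54 and 49.09 tags in WT and 57.18 and 67.14 in SgshKO and was not called (0.23 ± 0.16, adjusted p = 0.328). Per length, S100b (227.7 tags per kb in WT) and Id3 (226.5) did not differ beyond their spread, and both were above Aldoc (60.27) and Slc1a3 (40.93).

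Aldh1l1 carried the strongest member peak of this sort, 15403 bp upstream, with 177.39 and 190.22 tags in WT and 209.66 and 223.34 in SgshKO (0.24 ± 0.09, adjusted p = 0.0703). The peak 35689 bp upstream lay the other way, with 46.68 and 33.24 tags in WT and 27.05 and 25.26 in SgshKO (-0.57 ± 0.21, adjusted p = 0.0517). Neither was called, and both are named here after their values were seen. The Aldh1l1 peak 18783 bp upstream (chr6:90531886-90532134) rose from 47.72 and 55.23 to 70.09 and 78.44 tags (0.52 ± 0.16, adjusted p = 0.0183). Slc1a3 had no common direction, with 2 of 17 peaks called higher and 1 lower. Its peak in intron 3 of 9, 50955 bp downstream, rose from 29.56 and 31.7 to 44.88 and 47.86 tags (0.58 ± 0.19, adjusted p = 0.0287). The start sites of Aldoc (19.19 and 14.32 against 22.75 and 13.96 tags) and Slc1a3 (9.34 and 8.18 against 6.15 and 5.98) were not called.

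Of the 71 member peaks in Olig2+ nuclei, 17 were called, 13 higher and 4 lower, where 19.8% of all peaks were called, 8.17% higher and 11.7% lower. These were 1 of 7 start-site peaks, beside 20.3% of all such peaks, and 16 of 64 distal peaks, beside 19.7%. The median log2 change was 0.11 over the member peaks and -0.07 over all peaks. With median-of-ratios scaling 19 were called, 17 higher and 2 lower, and with quantile normalization 16, 15 higher and 1 lower. Without WT replicate 1, 5 member peaks were called, and without WT replicate 2, 7, all higher. The peaks of Id3 8461 bp upstream and of S100b 5078 bp upstream were called under each of the 13 alternatives.

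**Figure D2:**
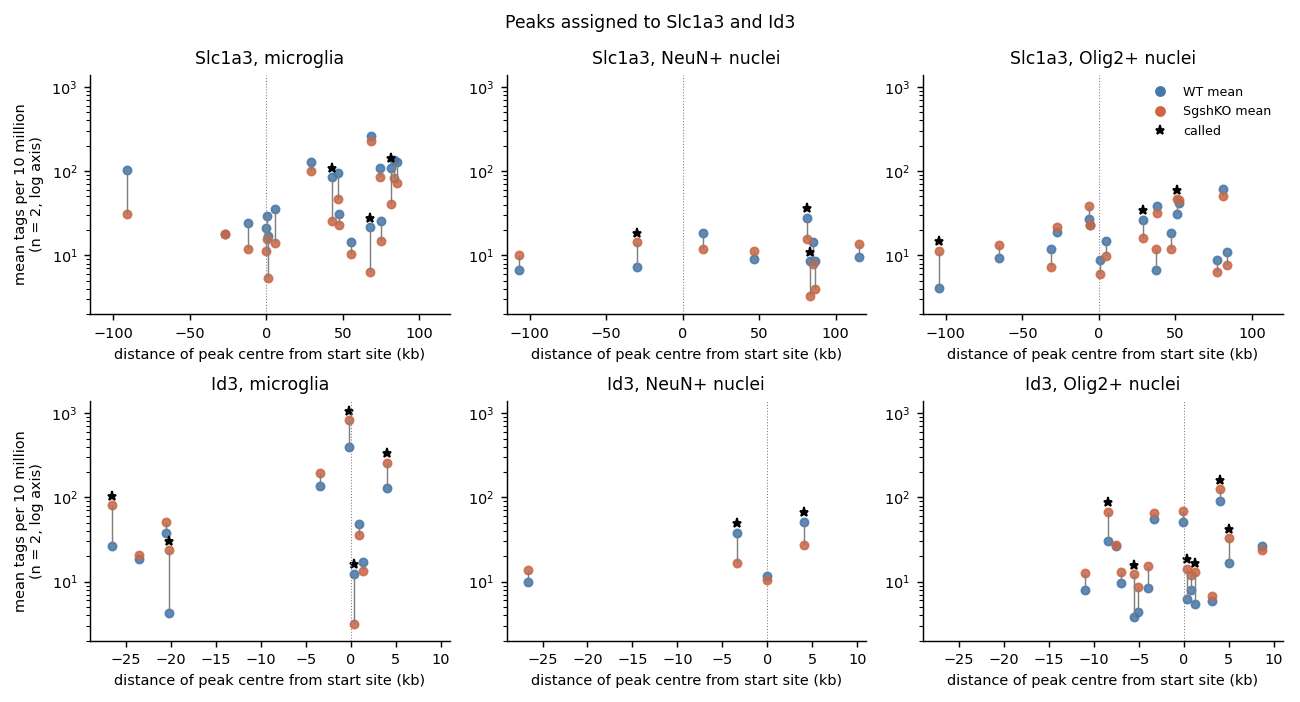
Mean tags per 10000000 (log axis, n = 2) of each peak of Slc1a3 and Id3 against the distance of its centre from the start site (kb), by sort; blue is WT, orange SgshKO, and a star marks a called peak. In microglia called Slc1a3 peaks are lower and most called Id3 peaks higher in SgshKO, and the called Id3 peaks are lower in NeuN+ and higher in Olig2+ nuclei.

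Of the member peaks, 25 of 45 in microglia (55.6%), 40 of 59 in NeuN+ nuclei (67.8%) and 51 of 71 in Olig2+ nuclei (71.8%) overlapped no peak of the other sorts, beside 60.2%, 59.9% and 51.2% of all peaks. Olig2+ member peaks overlapped a NeuN+ peak in 21.1% and a microglial peak in 22.5% of cases, beside 41.3% and 32.8% of all Olig2+ peaks. NeuN+ member peaks overlapped a microglial peak in 25.4% and an Olig2+ peak in 25.4%, beside 27.9% and 31.7%. Microglial member peaks overlapped a NeuN+ peak in 33.3% and an Olig2+ peak in 35.6%, beside 32.9% and 29.8%. Only 7 places were matched in all 3 tables at a reciprocal overlap of 50%: 2 of Id3 and 1 each of Aldh1l1, Aldoc, Gfap, Gja1 and Slc1a3. Aldoc was the only member with a matched start-site peak.

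One model of the 12 libraries over 16740 matched peaks compared the sorts in WT. Olig2+ and NeuN+ nuclei differed at 5 of 7 member peaks (49.5% of all matched peaks), Olig2+ nuclei and microglia at 4 of 7 (67.2%), and NeuN+ nuclei and microglia at 6 of 7 (65.8%). The median log2 difference over all matched peaks was 0.15 for Olig2+ minus NeuN+ nuclei. It was -0.35 for Olig2+ nuclei minus microglia and -0.47 for NeuN+ nuclei minus microglia. The Gfap upstream peak held 11.9 and 15.25 tags in NeuN+ and 14 and 7.16 in Olig2+ WT nuclei, below the microglial values given above. The log2 difference was -1.63 ± 0.35 for Olig2+ nuclei minus microglia (limma, adjusted p = 0.000302) and -1.25 ± 0.35 for NeuN+ nuclei minus microglia (adjusted p = 0.00378), the latter lost with quantile normalization (-0.61, adjusted p = 0.121). The Gfap peak in these tables was highest in the sort of live CD11b+ cells.

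The Aldh1l1 upstream peak was highest in NeuN+ nuclei, with 49.85 and 51.39 tags in WT beside 19.88 and 14.4 in microglia and 17.12 and 19.94 in Olig2+ nuclei. It exceeded microglia by 1.53 ± 0.28 (adjusted p = 5.08e-05) and differed in Olig2+ minus NeuN+ nuclei by -1.41 ± 0.28 (adjusted p = 0.000225). The Slc1a3 peak 81407 bp downstream held 62.24 and 60.34 tags in Olig2+ WT nuclei, above NeuN+ nuclei by 1.10 ± 0.28 (adjusted p = 0.00208) and below microglia (-0.76 ± 0.28, adjusted p = 0.0187). The last difference was lost without microglial WT replicate 1 (-0.36, adjusted p = 0.351), Olig2+ WT replicate 1 (-0.79, adjusted p = 0.0652) or Olig2+ WT replicate 2 (-0.74, adjusted p = 0.0805). Gja1 passed in no pair of sorts.

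The genotype effect itself differed between sorts at 4 of the 7 peaks. At the Id3 peak 4088 bp downstream, SgshKO minus WT was larger in Olig2+ than in NeuN+ nuclei by 1.34 ± 0.25 (limma, adjusted p = 0.000581), and NeuN+ nuclei minus microglia gave -1.86 ± 0.25 (adjusted p = 2.25e-06). At the Id3 peak 3344 bp upstream the values were 1.36 ± 0.31 (adjusted p = 0.00226) and -1.62 ± 0.31 (adjusted p = 0.000142). That peak held 147.78 and 121.99 tags in WT and 245.01 and 144.82 in SgshKO microglia, and 56.02 and 54.2 against 71.32 and 57.83 in Olig2+ nuclei. At both Id3 peaks, SgshKO libraries were lower than WT in NeuN+ nuclei only.

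The Aldh1l1 peak 12663 bp upstream gave 1.59 ± 0.40 for Olig2+ minus NeuN+ nuclei (limma, adjusted p = 0.00424), and its difference between NeuN+ nuclei and microglia missed the threshold (-0.97 ± 0.40, adjusted p = 0.0535). The rise of the Aldoc start site in microglia exceeded the change in Olig2+ nuclei (-1.74 ± 0.42 for Olig2+ nuclei minus microglia, adjusted p = 0.00424) and in NeuN+ nuclei (-1.83 ± 0.42, adjusted p = 0.0011).

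The median difference over all matched peaks was itself 0.50 for Olig2+ minus NeuN+ nuclei, -0.17 for Olig2+ nuclei minus microglia and -0.61 for NeuN+ nuclei minus microglia, and 31.7%, 21.6% and 42.5% of matched peaks were called, beside 3, 1 and 3 of the 7. Relative to these medians the downstream Id3 peak differed by 0.84 and -1.26, the upstream Id3 peak by 0.86 and -1.02, Aldh1l1 by 1.10, and Aldoc by -1.57 and -1.22. Scaled to tags in the matched peaks, Aldoc between Olig2+ nuclei and microglia (-1.33, adjusted p = 0.0219) and the downstream Id3 peak between NeuN+ nuclei and microglia (-0.88, adjusted p = 0.0144) still passed. The other 5 differences kept their direction with adjusted p from 0.0638 to 0.112. Under that scaling the Slc1a3 peak also passed, at 1.48 for Olig2+ nuclei minus microglia (adjusted p = 0.0077), where the deposited scaling gave 1.09 (adjusted p = 0.0502).

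**Figure D3:**
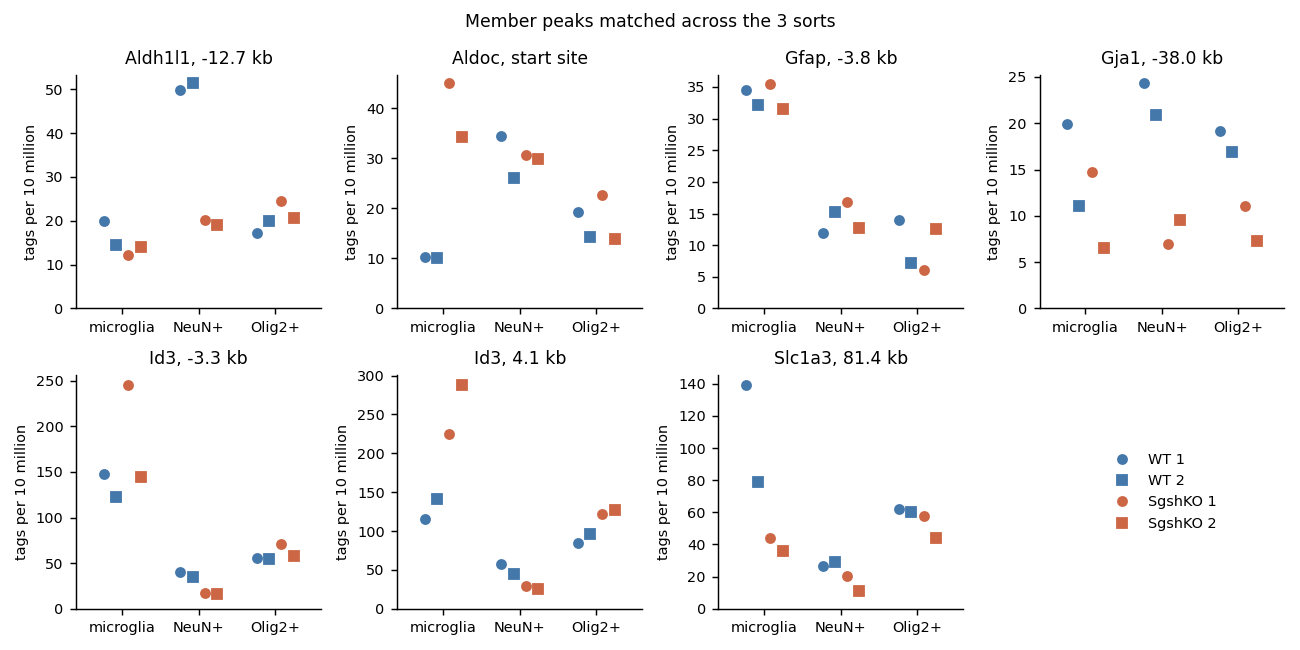
Tags per 10000000 in each of the 12 libraries for the 7 matched member peaks, titled by gene and distance from the start site. Blue is WT, orange SgshKO, circles replicate 1 and squares replicate 2; Aldoc separates the genotypes in microglia, and the Id3 peak 4088 bp downstream is higher in SgshKO microglia and Olig2+ nuclei and lower in SgshKO NeuN+ nuclei.

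The matched start-site peaks most like that of Aldoc over the 12 libraries, by Pearson correlation of log2 values, were those of Chmp2b (0.874), Catsperd (0.873), Lipt1 (0.865), Rbm19 (0.864) and Gfod2 (0.862), as a description over points that share sort and scaling.

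Of 30 other astrocyte genes, 15 had a start-site peak in microglia and 17 in each nuclei sort. Of their peaks, 19 of 159 were called in microglia (17 higher, 2 lower), 36 of 117 in NeuN+ nuclei (16 higher, 20 lower) and 23 of 163 in Olig2+ nuclei (6 higher, 17 lower), with median log2 changes of -0.06, -0.07 and 0.04. These are 11.9%, 30.8% and 14.1% of their peaks, beside 7.37%, 29.8% and 19.8% of all peaks. Summed over start-site peaks they held 1089.79 and 1030.14 tags in WT and 1334.1 and 867.09 in SgshKO microglia, which overlap. In NeuN+ nuclei the sums were 593.09 and 563.62 against 385.3 and 381.52, lower in both SgshKO libraries, as were those of the 10 neuronal genes (1241.65 and 1171.29 against 665.22 and 670.45). In Olig2+ nuclei they were 969.93 and 925.53 against 892.73 and 885.39, beside 3739.11 and 3673.07 against 3063.13 and 3066.31 for the 10 oligodendrocyte genes.

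Glul, the glutamine synthetase gene, was higher in SgshKO microglia 562 bp from its start site, at 25.93 and 27.96 against 77.05 and 62.2 tags (1.33 ± 0.36, limma, adjusted p = 0.0175). The peak is annotated at the transcript end of the microRNA gene Mir8114. It was the only 1 of 26 start-site peaks of these genes called there, and their median log2 change was -0.27. In NeuN+ nuclei 11 of 24 start-site peaks were called, all lower, with a median of -0.75, beside the 46.6% called and the median of -0.53 over all start-site peaks. Of these, Ttyh1 (49.28 and 56.47 against 27.92 and 17.14), Atp1b2 (63.44 and 50.83 against 30.01 and 36.19), Plpp3 (20.39 and 23.72 against 11.17 and 9.52) and Slc4a4 (20.96 and 25.98 against 13.26 and 9.52 tags) fell by 0.77 to 1.23 on the log2 scale. In Olig2+ nuclei 2 of 25 start-site peaks were called, both lower, while the median log2 change of the 25 was 0.16. Hepacam, which encodes a glial adhesion protein, fell from 171.16 and 174.88 to 126.04 and 116.99 tags (-0.51 ± 0.11, adjusted p = 0.00109). Kcnj10, a glial potassium channel gene, fell from 215.77 and 204.54 to 169.08 and 172.16 (-0.30 ± 0.09, adjusted p = 0.0241). Both are also known in oligodendrocytes.

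Of 18 reactive astrocyte genes, such as Vim and Serpina3n, 9 had a microglial start-site peak, while 5 had one in NeuN+ and 4 in Olig2+ nuclei. Of their peaks, 4 of 58 were called in microglia (2 higher, 2 lower), 21 of 80 in NeuN+ nuclei (7 higher, 14 lower) and 6 of 30 in Olig2+ nuclei (2 higher, 4 lower), shares near those of all peaks. Summed over the start-site peaks of the 10 members, WT microglia had 603.23 and 542.18 tags and SgshKO microglia 1159.22 and 807.68, of which Id3 held 467.54 and 445.6 against 1025.04 and 698.13. The sums were 252.63 and 237.2 against 194.06 and 192.99 in NeuN+ nuclei and 162.87 and 147.77 against 191.21 and 197.42 in Olig2+ nuclei. The part of astrocyte nuclei in these sums was not tested.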

How the data were processed

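ATAC-seq, which cuts open chromatin with the transposase Tn5, was measured in 12 single-end libraries, grouped by sort and genotype from the labels. The submitters' processing notes name Bowtie2, HOMER and mm10. How peaks were called, reads shifted and duplicates treated was not given in the sources used here. For each sort, 1 peak table was deposited by the authors, whose signal is tags per peak normalized to 10000000 tags a library, per the file headers. Whole reads were recovered from it for 100% of values (tolerance 0.02), with a median of 17 to 39 reads per peak and library.

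Genes, distances and annotations are those of the deposited tables. Within each table, log2(tags + 1) of all peaks was compared between genotypes with limma 3.58.1 in R 4.3.3 (eBayes with intensity trend, two-sided), and calls required an adjusted p under 0.05 (Benjamini-Hochberg, all peaks of that table). Fold changes are on that log2 scale, which understates changes of low peaks. Peaks matched one to one by a reciprocal overlap of 50% entered a model of the 12 libraries. The fits were run on simulated counts with the same dispersion for every peak, which does not measure how they handle the spread of these libraries. Peaks given with values were the highest and every called start-site peak of a member, and per sort the 6 called distal peaks of smallest p at or above the median signal; for wider lists, called start-site peaks at or above the median, up to 4 a sort. The members and lists were chosen with earlier results of these data known. Results were recomputed with a pseudocount of 0.5 or 5, without the lowest 25% of peaks, with scaling to tags in peaks, median-of-ratios scaling, quantile normalization, count tests on the recovered reads (DESeq2 1.42.0, edgeR 4.0.16), a replicate block, start sites within 500 bp or by annotation, an overlap of 80%, and each library left out.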

Additional observations from a re-analysis of the deposited data

Results flagged for a closer look

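The change between genotypes differed between sorts at 4 member peaks, by the test of that difference in the model of 12 libraries (limma, log2 scale, adjusted over all matched peaks). At the Aldoc start site it was -1.74 for Olig2+ nuclei minus microglia and -1.83 for NeuN+ nuclei minus microglia. At the Id3 peak 3344 bp upstream it was 1.36 for Olig2+ minus NeuN+ nuclei and -1.62 for NeuN+ nuclei minus microglia. At the Id3 peak 4088 bp downstream it was 1.34 and -1.86 for the same pairs, and at the Aldh1l1 peak 12663 bp upstream it was 1.59 for Olig2+ minus NeuN+ nuclei. For Olig2+ minus NeuN+ nuclei, 3 of the 7 matched member peaks passed, beside 31.7% of all matched peaks. The counts were 1 of 7 (21.6%) for Olig2+ nuclei minus microglia and 3 of 7 (42.5%) for NeuN+ nuclei minus microglia. Most of these differences no longer passed when scaled to tags in the matched peaks.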

How the results depend on the processing

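Of the 46 called member peaks, 2 were called under each of the 13 alternatives. In microglia the 9 calls became 16 scaled to tags in peaks, 14 with edgeR, 15 with the replicate block and 0 to 18 with 1 library left out. In NeuN+ nuclei the 20 became 9 with quantile normalization, 3 with DESeq2 and 0 to 12 with 1 left out. In Olig2+ nuclei the 17 became 11 without the lowest 25% of peaks, 3 with DESeq2 and 5 to 18 with 1 left out. Deviations of libraries with the same replicate number were little correlated over peaks (0.042, 0.0036 and 0.00069, 2 pairs each). That correlation does not measure a shift shared by all peaks. In microglia, tags in peaks were 55.8% and 48.7% for WT replicates 1 and 2, and 67.4% and 53.7% for SgshKO. The replicate block took calls over all microglial peaks from 6765 to 14489, and gave 21 member calls in NeuN+ and 19 in Olig2+ nuclei. Among the 7 matched peaks in WT, the 5 calls of Olig2+ against NeuN+ nuclei became 3 with the replicate block, 3 at 80% overlap and 3 to 5 with 1 left out, the 4 of Olig2+ nuclei against microglia 2 at 80% overlap and 2 to 5, and the 6 of NeuN+ nuclei against microglia 3 at 80% overlap. Of the differences in genotype effect, the 3 of Olig2+ against NeuN+ nuclei became 0 scaled to tags in matched peaks. The 1 of Olig2+ nuclei against microglia became 2 with a pseudocount of 5, that scaling, quantile normalization or the replicate block, and 1 to 3 with 1 left out. The 3 of NeuN+ nuclei against microglia became 1 at 80% overlap, where fewer peaks are matched. Among the named peaks, direction turned at 4 uncalled start-site peaks: Slc1a2 in microglia (-0.094 scaled to tags in peaks, -0.0469 without SgshKO replicate 1, at most 0.2438 with 1 library left out), Aldoc in NeuN+ nuclei (-0.185 without WT replicate 2, -0.0061 without SgshKO replicate 1, at most 0.213 with 1 left out), Id3 in NeuN+ nuclei (0.123 scaled to tags in peaks, 0.0476 with median-of-ratios scaling, 0.0495 with edgeR, 0.0497 with DESeq2) and Aldoc in Olig2+ nuclei (-0.0991 without WT replicate 2, -0.2334 without SgshKO replicate 1, at most 0.4334 with 1 left out). Of the other results for named peaks under an alternative, 334 kept direction and side of the threshold, 84 lost a call and 7 gained one. Other causes were not tested. Reads per peak and 2 libraries a group limit the precision.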
